A study of Mus musculus with 12 samples.

Results

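C8-D1A cells, an established line of mouse astrocytes, were cultured for 24 h in medium whose NaHCO3 had been lowered to 0.2 g/L and compared with control cells. The comparison held the 3 low-NaHCO3 libraries and the 3 control libraries, taken by their labels, which were 6 of the 12 RNA-seq libraries of the series. Control cells were kept at 37 °C under 5% CO2 in a humidified incubator. The other 6 libraries came from the same line after 24 h with 20 mM lactic acid added to the medium (3 libraries) or after 24 h under 15% CO2 (3 libraries), and they served as a second point of comparison. The NaHCO3 content of the control medium, the CO2 level over the low-NaHCO3 medium and the pH reached are not given in the labels used here. The labels do not say that replicates were separate cultures, so p-values measure the spread between these libraries, which may be technical, and all results come from 1 cell line.

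Bicarbonate is the main base of culture medium and of extracellular fluid, where it is in equilibrium with CO2 and protons, and carbonic anhydrases speed that equilibrium. Cells hold their own pH with sodium-bicarbonate cotransporters, chloride-bicarbonate exchangers and sodium-proton exchangers, and astrocytes are known for taking part in this way in the pH regulation of brain tissue. Bicarbonate is also a substrate, since biotin-dependent carboxylases such as acetyl-CoA carboxylase fix it in lipid and amino acid metabolism.

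Values are TPM, transcript levels corrected for length and scaled to the same total in every library, so the depth of sequencing behind them is unknown. The 3 low-NaHCO3 libraries resembled each other closely (Spearman correlation of 0.995 to 0.997 over genes), as did controls 2 and 3 (0.997). Control 1 stood apart from controls 2 and 3 (0.878), further than the low-NaHCO3 libraries did (0.937 to 0.941). Control 1 held 17319 genes above 0, against 15147 and 15232 in the other controls, and 14531 to 14747 were above 0 in the low-NaHCO3 libraries. It was the highest of the 12 libraries for 12 of 13 neuronal, 12 of 12 microglial, 10 of 11 oligodendrocyte and 5 of 5 erythroid marker genes. The neuronal list summed to 446 to 484 TPM in low-NaHCO3 medium, 3595 TPM in control 1 and 647 to 673 TPM in controls 2 and 3, and the microglial list to 3.88 to 5.06, 204 and 8.95 to 9.43 TPM in the same order. The oligodendrocyte list summed to 114 to 119.7 TPM in low-NaHCO3 medium, 1058 TPM in control 1 and 199 to 218 TPM in controls 2 and 3, and the erythroid list to 1.66 to 3.31, 355 and 2.38 to 2.54 TPM. Snap25, Rbfox3, C1qa, P2ry12, Hba-a2 and Hbb-bt, defining markers of neurons, microglia and erythroid cells, were listed at 0 in every low-NaHCO3 library. The endothelial and mural list summed to 1084 to 1181 TPM in low-NaHCO3 medium, 484 TPM in control 1 and 681 to 702 TPM in controls 2 and 3. Most of this sum was the smooth muscle actin gene Acta2. It had 1133, 1152 and 1057 TPM in low-NaHCO3 medium, against 342, 669 and 643 TPM in controls 1 to 3. Of the 12 members, 10 were highest in control 1 and 8 were under 1 TPM in every low-NaHCO3 library, with Kcnj8 and Abcc9 at 0. The muscle list summed to 99.3 to 117, 116 and 106 to 123 TPM in the same order, with Mymx at 0 in low-NaHCO3 medium. Each result is therefore given for all 12 libraries and again without control 1, and "rose" and "fell" are used only of genes past the threshold in both fits (limma on log2(TPM + 1), Benjamini-Hochberg adjusted p under 0.05). The part of control 1's other-cell transcripts in any result was not tested beyond this.

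The astrocyte label was met only in part. Of 20 astrocyte markers, 8 were under 1 TPM in every low-NaHCO3 library, and the glutamate transporter Slc1a3 and the connexin Gjb6 were listed at 0. Gfap, the classical astrocyte filament, had 0.126, 0.296 and 0.127 TPM in low-NaHCO3 medium, against 64.3, 0.518 and 0.701 TPM in controls 1 to 3. The glial factor Sox9 and the calcium-binding protein S100b, chosen after their values were seen, were present throughout, Sox9 at 35.7, 34.2 and 35.6 TPM in low-NaHCO3 medium, against 23.8, 31.2 and 34.9 TPM in controls 1 to 3, and S100b at 33.5, 35.05 and 36.5 TPM in low-NaHCO3 medium, against 128, 37.4 and 43.7 TPM in controls 1 to 3. The whole list summed to 352 to 356 TPM in low-NaHCO3 medium, 4666 TPM in control 1 and 697 to 743 TPM in controls 2 and 3. In bulk libraries, fewer cells of a type and less RNA from each such cell cannot be told apart.

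Low-NaHCO3 medium was followed by changes across most of the measured transcriptome, most of them small. Of 12326 genes tested, 6758 (54.8%) passed the threshold, 2442 higher (19.8%) and 4316 lower (35.0%) in low-NaHCO3 medium. Without control 1, 7786 of 12226 genes passed (63.7%), 2781 higher (22.7%) and 5005 lower (40.9%). In both fits together, 2286 genes (18.5%) rose and 4152 (33.7%) fell. By 1 or more on the log2 scale, 576 genes were higher and 1687 lower, or 557 and 1355 without control 1. By 2 or more, 100 were higher and 190 lower, or 101 and 85 without control 1. The median log2 change of all genes was -0.20 (-0.17 without control 1). The split between higher and lower genes moved with the scaling. Higher genes made up 36.1% of the calls on TPM, 51.3% after median-of-ratios scaling, 53.2% after quantile normalization and 55.8% after removal of the trend with transcript length. The length step also brought each library to a common level, and the parts of level and length in its result were not told apart. The median of all genes under these 3 scalings was -0.03, 0.0046 and 0.03 on the log2 scale. With the mitochondrial genes and the 10 most abundant other genes left out before scaling, higher genes made up 30.8% and the median was -0.28. Gene lists are therefore read against the median and the call shares of all genes.

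**Figure D1:**
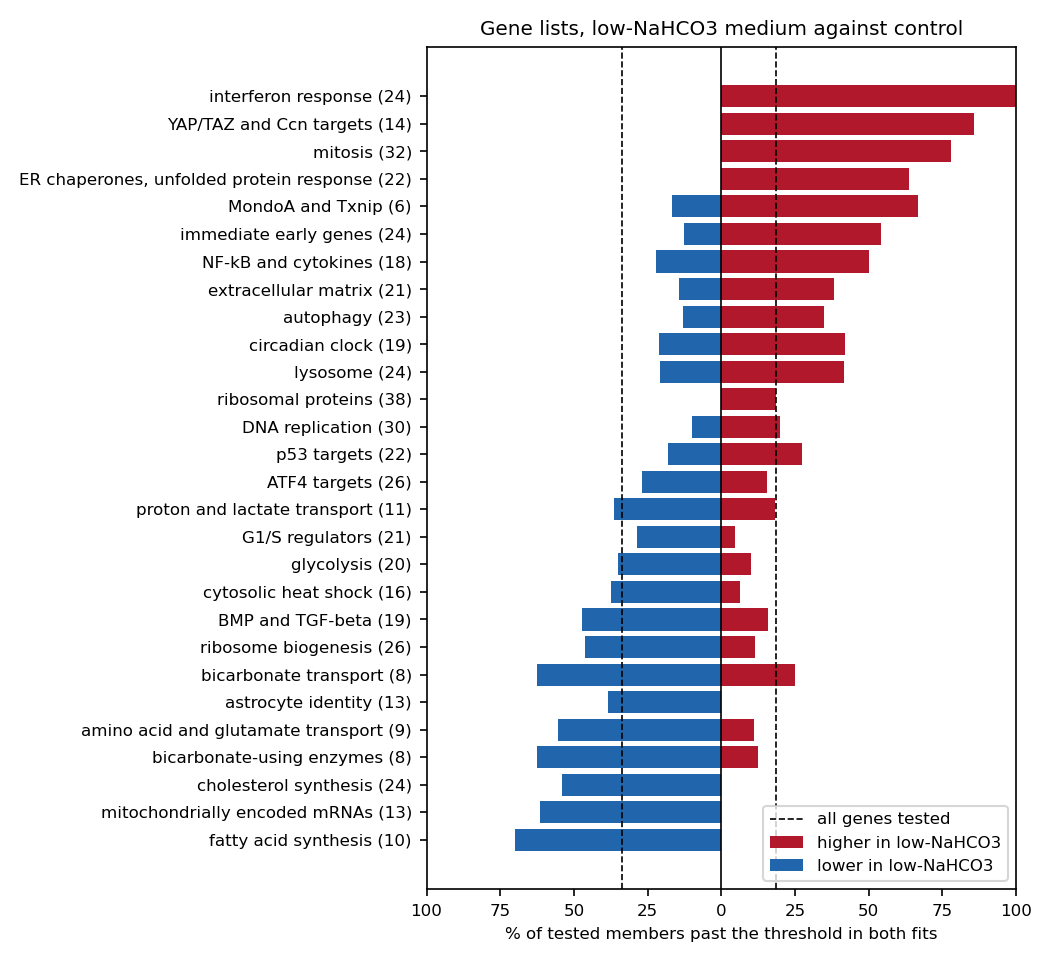
Each bar gives, for a gene list with its number of tested members in brackets, the percentage of members past the threshold in both fits, higher in low-NaHCO3 medium to the right in red and lower to the left in blue, with dashed lines at the shares of all genes tested. All 24 interferon-response genes lie to the right, and no member of the cholesterol, fatty acid or mitochondrially encoded lists does.

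The interferon response gave the highest changes in the comparison. Type I interferons bind the receptor pair IFNAR1 and IFNAR2, and the kinases JAK1 and TYK2 then activate transcription factors that enter the nucleus and switch on antiviral genes. All 24 tested members of the interferon list rose in low-NaHCO3 medium, where 18.5% of all genes did, and in all 24 every low-NaHCO3 library was above every control. Over all genes, 23.8% lay above all controls in this way and 40.2% below all controls. The list's median log2 change was 3.05, or 3.11 without control 1, beside -0.20 for all genes, and it stayed between 2.91 and 3.37 under the processing alternatives. Of the 15 genes named as the most raised in the comparison, 9 were members of this list, and the other 6 were Ifi44, Oas3, Ifit3b, Trim34a, Phf11d and Gbp2.

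The promoters of Ifit3, the gene most raised, and of Rsad2 are shown because they carry the element that interferon-activated transcription factors are known to bind. Each is the 250 bases before the RefSeq start site (GRCm38.p6), and capitals mark matches to the interferon-stimulated response element, GAAA, any 2 bases and GAAA, which show as TTTC, any 2 bases and TTTC because they lie on the other strand. Ifit3 (chr19:34583279-34583528, plus strand) holds 2 matches, the first starting 156 bases before the start site, and Rsad2 (chr12:26456453-26456702, minus strand) holds 1 match, 120 bases before it.
Ifit3: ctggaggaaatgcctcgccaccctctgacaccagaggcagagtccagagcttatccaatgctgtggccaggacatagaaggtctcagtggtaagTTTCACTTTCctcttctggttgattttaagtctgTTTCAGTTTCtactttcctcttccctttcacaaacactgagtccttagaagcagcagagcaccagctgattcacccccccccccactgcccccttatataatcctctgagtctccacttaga
Rsad2: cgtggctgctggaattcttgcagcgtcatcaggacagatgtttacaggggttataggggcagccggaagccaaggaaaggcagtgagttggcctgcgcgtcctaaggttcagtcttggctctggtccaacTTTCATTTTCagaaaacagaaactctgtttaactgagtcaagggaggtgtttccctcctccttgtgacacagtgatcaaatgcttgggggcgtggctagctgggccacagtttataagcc
Searched on both strands, the element occurred in 2.98% of all 32851 RefSeq windows and in 3.24% of the 9640 tested genes with a window. It occurred in 7 of the 15 interferon-list genes with a window, which were Ifit1, Ifit3, Stat2, Isg15, Oas1a, Rsad2 and Bst2. A match describes the letters in this window and shows no binding.

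Among the ligands and receptors, chosen after their values were seen, Ifnb1, the interferon-beta gene, had 2.13, 1.33 and 4.63 TPM in low-NaHCO3 medium, against 0, 0.583 and 0 TPM in controls 1 to 3. These levels are low, but every low-NaHCO3 library was above every control, and Ifnb1 passed the threshold. Only the 3 low-NaHCO3 libraries reached 1 TPM, so Ifnb1 entered the test through the group where it was high. The separation and the adjusted p therefore only describe these values. Ifnb1 changed by 1.57 ± 0.32 on the log2 scale (SE, limma adjusted p = 0.00189), or by 1.45 without control 1. Ifnb1 was listed at 0 in every 15% CO2 library and averaged 0.0797 TPM with lactic acid. Ifnar1, a receptor chain, had 39.7, 39.2 and 36.8 TPM in low-NaHCO3 medium, against 39.98, 36.4 and 34.7 TPM in controls 1 to 3, and the groups overlapped (log2 change 0.06 ± 0.08 SE, limma adjusted p = 0.560). The receptor kinase gene Jak1 rose (0.41 on the log2 scale, or 0.39 without control 1). Tmem173, which encodes the adaptor STING of cytosolic DNA sensing, was among the strongly lowered genes, with 6.396, 5.56 and 5.65 TPM in low-NaHCO3 medium, against 20.98, 38.6 and 32.7 TPM in controls 1 to 3. Tmem173 changed by -2.17 ± 0.18 on the log2 scale (SE, limma adjusted p = 4.64e-06), or by -2.41 without control 1. Cgas, the DNA sensor upstream of STING, went the other way, at 16.9, 17.03 and 15.3 TPM in low-NaHCO3 medium, against 9.58, 12.9 and 13.6 TPM in controls 1 to 3 (log2 change 0.43, or 0.29 without control 1). Its call was lost when only the 6 compared libraries were fitted.

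The transcription factors of the pathway rose. Irf7, which amplifies interferon production, had 48.3, 57.02 and 45.2 TPM in low-NaHCO3 medium, against 3.42, 2.43 and 2.81 TPM in controls 1 to 3. Irf7 changed by 3.72 ± 0.22 on the log2 scale (SE, limma adjusted p = 6.58e-07), or by 3.82 without control 1. The low-NaHCO3 libraries stood more than 10 times above any control library. Stat2 and Irf9, which act together at interferon-responsive promoters and were chosen after their values were seen, rose less. Stat2 had 76.6, 86.5 and 75.1 TPM in low-NaHCO3 medium, against 20.4, 15.2 and 17.1 TPM in controls 1 to 3. Irf9, the DNA-binding member, had 52.4, 61.3 and 49.9 TPM in low-NaHCO3 medium, against 13.9, 12.8 and 14.6 TPM in controls 1 to 3. Their log2 changes were 2.12 ± 0.13 and 1.91 ± 0.15 (SE), and 2.23 and 1.91 without control 1.

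Among sensors, Dhx58, the LGP2 helicase that modulates viral RNA sensing, had 24.3, 29.3 and 22.3 TPM in low-NaHCO3 medium, against 1.66, 1.14 and 1.58 TPM in controls 1 to 3. Dhx58 changed by 3.42 ± 0.27 on the log2 scale (SE, limma adjusted p = 3.77e-06), or by 3.48 without control 1. The related sensors Ddx58 (RIG-I) and Ifih1 (MDA5), chosen after their values were seen, rose (2.83 and 1.75 on the log2 scale, or 2.70 and 1.64 without control 1).

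The highest changes were those of effectors. Ifit3, whose protein binds viral RNA together with other IFIT proteins, had 219, 263 and 219.9 TPM in low-NaHCO3 medium, against 14.7, 4.63 and 6.498 TPM in controls 1 to 3. Low-NaHCO3 libraries were all above 200 TPM and no control reached 15. Ifit3 changed by 4.75 ± 0.34 on the log2 scale (SE, limma adjusted p = 2.07e-06), or by 5.17 without control 1. Ifit3b, a near-identical neighbour whose reads the authors' counting could split with Ifit3, had 61.9, 76.1 and 61.4 TPM in low-NaHCO3 medium, against 5.35, 1.53 and 2.96 TPM in controls 1 to 3, so both values are uncertain. Usp18, which removes ISG15 from proteins and dampens the receptor, had 47.2, 58.97 and 44.2 TPM in low-NaHCO3 medium, against 2.68, 2.11 and 2.21 TPM in controls 1 to 3. Usp18 changed by 3.93 ± 0.19 on the log2 scale (SE, limma adjusted p = 2.76e-07), or by 4.005 without control 1. Mx2, a dynamin-like antiviral GTPase, had 31.3, 27.2 and 31.8 TPM in low-NaHCO3 medium, against 2.85, 0.847 and 1.84 TPM in controls 1 to 3. Mx2 changed by 3.51 ± 0.29 on the log2 scale (SE, limma adjusted p = 5.20e-06), or by 3.76 without control 1. Oas3, a sensor of double-stranded RNA that makes the activator of RNase L, had 23.4, 33.3 and 21.5 TPM in low-NaHCO3 medium, against 0.342, 0.309 and 0.558 TPM in controls 1 to 3, and no control library reached 1 TPM. Oas3 changed by 4.25 ± 0.21 on the log2 scale (SE, limma adjusted p = 2.76e-07), or by 4.22 without control 1. Xaf1, Oasl2, Rtp4 and Ifit1 rose (3.65, 3.64, 3.47 and 3.44 on the log2 scale, or 3.72, 3.98, 3.66 and 3.65 without control 1). The ubiquitin-like modifier Isg15, chosen after its values were seen, had 145, 177 and 134 TPM in low-NaHCO3 medium, against 18.4, 28.9 and 34.4 TPM in controls 1 to 3. The lowest members were Ifit2 at 0.78 (0.62 without control 1) and Bst2, the tethering factor of budding virus, at 0.99 (0.84 without control 1), and the call of Bst2 was lost when low-NaHCO3 library 2 was left out. Ifit2 and Bst2 were chosen after their values were seen.

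**Figure D2:**
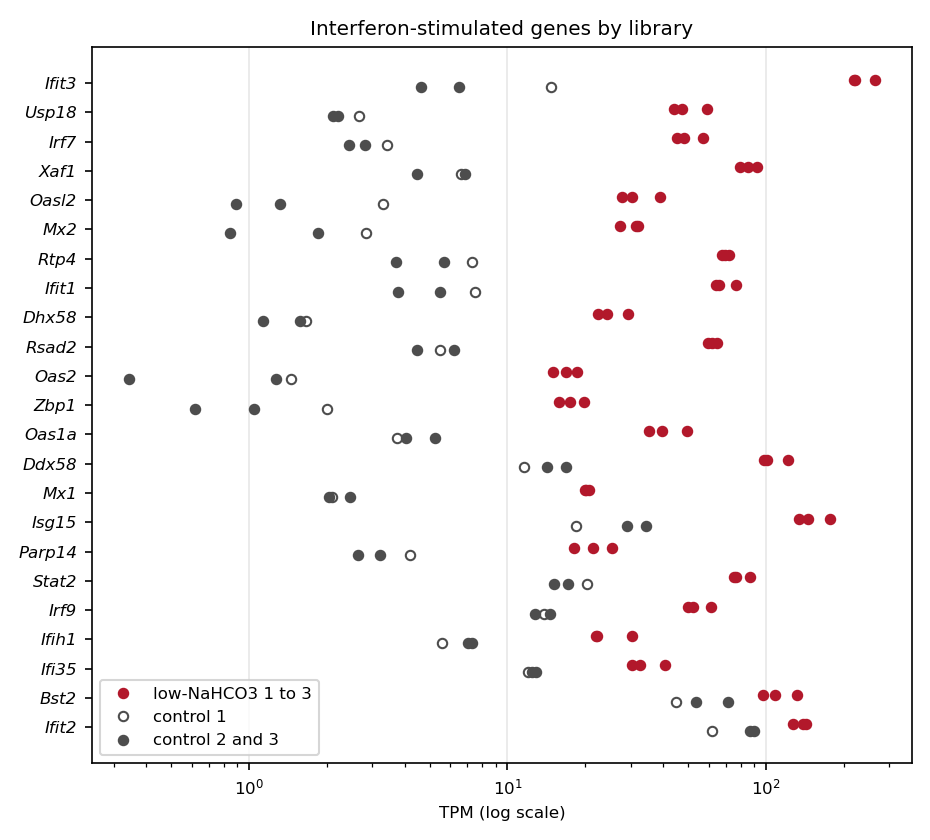
Level of interferon-list genes in TPM on a log axis, 1 point a library, with low-NaHCO3 libraries in red, control 1 as open circles and controls 2 and 3 filled grey. Every red point of a gene lies to the right of all its control points, from Ifit3 at the top (219 to 263 TPM against 4.63 to 14.7) to Ifit2 at the bottom (127 to 143 TPM against 62.0 to 89.5).

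The response was also higher in low-NaHCO3 medium than with lactic acid or 15% CO2. Against 20 mM lactic acid, where 17.8% of all genes were higher and 30.8% lower in low-NaHCO3 medium, 23 of the 24 interferon genes were higher, with a median difference of 2.47 on the log2 scale. Against 15% CO2, where 17.5% of all genes were higher and 33.7% lower, 23 of 24 were higher, with a median difference of 1.48. Bst2 was the member not past the threshold in either (limma adjusted p = 0.182 against lactic acid and 0.450 against 15% CO2). Ifit3 averaged 14.1 TPM with lactic acid and 32.9 TPM under 15% CO2, and Irf7 averaged 4.24 and 11.2 TPM.

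Chemokine and NF-kB genes moved in both directions. Of 18 tested members of the NF-kB and cytokine list, 9 rose and 4 fell, beside 18.5% and 33.7% of all genes. The median log2 change was 0.39 (0.24 without control 1). Cxcl10, a chemokine that interferon also induces, had 37.2, 39.3 and 52.3 TPM in low-NaHCO3 medium, against 2.87, 2.33 and 4.27 TPM in controls 1 to 3. Cxcl10 changed by 3.41 ± 0.19 on the log2 scale (SE, limma adjusted p = 4.71e-07), or by 3.37 without control 1. Il11, a cytokine of the interleukin-6 family, had 64.1, 53.4 and 65.1 TPM in low-NaHCO3 medium, against 6.11, 7.35 and 11.02 TPM in controls 1 to 3. Il11 changed by 2.79 ± 0.19 on the log2 scale (SE, limma adjusted p = 1.76e-06), or by 2.62 without control 1. In both genes the groups were far apart. Tnfaip3, the A20 feedback inhibitor of NF-kB, had 20.9, 18.5 and 18.8 TPM in low-NaHCO3 medium, against 3.74, 4.20 and 4.67 TPM in controls 1 to 3 (log2 change 1.97, or 1.91 without control 1). Relb, an NF-kB subunit, and Ccl5, a T-cell chemokine, rose (1.48 and 2.14 on the log2 scale, or 1.45 and 2.37 without control 1). The monocyte chemokines Ccl2 and Ccl7 were among the 4 that fell, at -0.60 and -0.47 (-0.87 and -0.70 without control 1), but control 1 lay within the low-NaHCO3 range of both genes. Both calls were lost without control 2, control 3, low-NaHCO3 library 1 or low-NaHCO3 library 2. The count of members that fell was 2 without control 2, 1 without control 3 and 2 without any 1 of the low-NaHCO3 libraries.

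Listed genes of the bicarbonate transporter families, not all of which need carry bicarbonate, were mostly lower, with 1 clear exception. Of 11 listed members 8 passed the filter on low values, of which 2 rose and 5 fell, beside 18.5% and 33.7% of all genes. The median log2 change was -1.03 (-0.74 without control 1). In sum the list had 97.3 to 111 TPM in low-NaHCO3 medium, against 299, 92.9 and 95.5 TPM in controls 1 to 3. The exception was Slc4a7, which encodes the electroneutral sodium-bicarbonate cotransporter NBCn1 that brings bicarbonate into cells. It had 76.7, 70.7 and 66.8 TPM in low-NaHCO3 medium, against 24.1, 29.4 and 29.4 TPM in controls 1 to 3, and the groups did not overlap. Slc4a7 changed by 1.34 ± 0.10 on the log2 scale (SE, limma adjusted p = 2.77e-06), or by 1.25 without control 1. It was also higher than with lactic acid (0.64 on the log2 scale, limma adjusted p = 4.18e-04) and than under 15% CO2 (0.87, adjusted p = 4.45e-05).

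The chloride-bicarbonate exchangers, which carry bicarbonate out of cells in exchange for chloride, fell. Slc4a2 (AE2) had 10.8, 10.1 and 8.34 TPM in low-NaHCO3 medium, against 20.6, 30.3 and 29.3 TPM in controls 1 to 3. Slc4a2 changed by -1.36 ± 0.14 on the log2 scale (SE, limma adjusted p = 2.03e-05), or by -1.53 without control 1. Slc4a3 (AE3) had 1.92, 2.27 and 1.71 TPM in low-NaHCO3 medium, against 29.2, 5.97 and 6.25 TPM in controls 1 to 3. Slc4a3 changed by -1.96 ± 0.44 on the log2 scale (SE, limma adjusted p = 0.00319), or by -1.27 without control 1. Slc26a6, an exchanger of chloride for bicarbonate or oxalate, had 1.20, 1.58 and 1.25 TPM in low-NaHCO3 medium, against 4.63, 3.95 and 4.19 TPM in controls 1 to 3 (log2 change -1.17, or -1.12 without control 1). In all 3 genes every low-NaHCO3 library was below every control, and for Slc4a3 control 1 was the highest library by far. Slc4a11 and Slc4a8, other members of the list, fell by less (log2 change -0.90, or -1.04 without control 1, for Slc4a11, and -0.74, or -0.36 without control 1, for Slc4a8). The call of Slc4a8 was lost under median-of-ratios and quantile scaling, with the length trend removed, and without any 1 of the low-NaHCO3 libraries. Slc26a11, also of the list, rose (log2 change 0.42, or 0.33 without control 1). Slc4a4, the electrogenic cotransporter NBCe1 known from astrocytes, was under 1 TPM in every low-NaHCO3 library (0.328, 0.596 and 0.494 TPM, against 47.2, 0.906 and 1.09 TPM in controls 1 to 3). It did not pass with all libraries (limma adjusted p = 0.0945), while without control 1 it was lower in low-NaHCO3 medium (log2 change -0.44, limma adjusted p = 0.0191).

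Of 11 tested proton and lactate carriers and their partners, 2 rose and 4 fell, close to the 18.5% and 33.7% of all genes that did, with a median log2 change of -0.35 (-0.24 without control 1). The scaffold Slc9a3r1 (NHERF1), which anchors sodium-proton exchangers at the membrane, had 45.95, 45.7 and 38.1 TPM in low-NaHCO3 medium, against 87.2, 106 and 106 TPM in controls 1 to 3. Slc9a3r1 changed by -1.19 ± 0.10 on the log2 scale (SE, limma adjusted p = 5.20e-06), or by -1.28 without control 1. The plasma membrane exchanger Slc9a2 and the endosomal exchanger Slc9a9 fell (-1.16 and -1.14 on the log2 scale, or -1.02 and -1.06 without control 1). The exchanger cofactor Chp1 and basigin (Bsg), the chaperone of lactate carriers, rose (0.37 and 0.40 on the log2 scale), and the call of Bsg was lost under quantile normalization. The lactate carrier Slc16a1 (MCT1) had 131, 128 and 132 TPM in low-NaHCO3 medium, against 125, 195 and 188 TPM in controls 1 to 3, and control 1 lay beside the low-NaHCO3 libraries. Slc16a1 did not pass with all libraries (log2 change -0.35 ± 0.19 SE, limma adjusted p = 0.133). Without control 1 it was lower in low-NaHCO3 medium (log2 change -0.55, limma adjusted p = 0.00862).

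Of 5 tested carbonic anhydrases, 1 rose in both fits and none fell, beside 18.5% and 33.7% of all genes. Without control 1 alone 2 were higher and 2 lower. The 1 that rose was Car9, a membrane enzyme facing the extracellular space, with 12.1, 14.8 and 12.5 TPM in low-NaHCO3 medium, against 6.57, 6.92 and 6.63 TPM in controls 1 to 3. Car9 changed by 0.87 ± 0.10 on the log2 scale (SE, limma adjusted p = 3.79e-05), or by 0.86 without control 1. Car9 averaged 10.97 TPM with lactic acid and 13.8 TPM under 15% CO2, and neither difference from low-NaHCO3 medium passed the threshold (0.23, limma adjusted p = 0.0698, and -0.07, adjusted p = 0.560). Among proton sensors 4 of 15 passed the filter on low values, and 1 rose and 1 fell, beside 18.5% and 33.7% of all genes. Without control 1, 2 were higher and 2 lower, beside 22.7% and 40.9% of all genes. So few tested members say nothing about the group as a whole. The acid-sensing ion channel gene Asic3 had 3.07, 3.82 and 3.74 TPM in low-NaHCO3 medium, against 1.17, 0.631 and 0.610 TPM in controls 1 to 3. Asic3 changed by 1.34 ± 0.19 on the log2 scale (SE, limma adjusted p = 1.97e-04), or by 1.48 without control 1. Asic1, its better known relative, had 2.41, 2.57 and 1.53 TPM in low-NaHCO3 medium, against 32.5, 7.04 and 6.79 TPM in controls 1 to 3, and the groups did not overlap. Its log2 change was -2.03, or -1.34 without control 1.

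Of 8 tested enzymes that use bicarbonate or fix CO2, 5 fell and 1 rose in both fits, beside 33.7% and 18.5% of all genes. The median log2 change was -0.58 (-0.46 without control 1). Acaca, acetyl-CoA carboxylase, the first committed enzyme of fatty acid synthesis, had 11.9, 13.5 and 11.2 TPM in low-NaHCO3 medium, against 22.5, 24.8 and 24.8 TPM in controls 1 to 3. Acaca changed by -0.92 ± 0.10 on the log2 scale (SE, limma adjusted p = 2.05e-05), or by -0.97 without control 1. Mccc2, a subunit of the leucine-degrading methylcrotonyl-CoA carboxylase, had 11.2, 12.6 and 10.2 TPM in low-NaHCO3 medium, against 24.1, 25.1 and 24.5 TPM in controls 1 to 3. Mccc2 changed by -1.06 ± 0.12 on the log2 scale (SE, limma adjusted p = 3.99e-05), or by -1.07 without control 1. Pcca, a subunit of propionyl-CoA carboxylase, had 13.6, 12.7 and 12.2 TPM in low-NaHCO3 medium, against 20.99, 23.8 and 22.5 TPM in controls 1 to 3 (log2 change -0.76, or -0.81 without control 1). In these 3 genes the groups did not overlap. Pcx, pyruvate carboxylase, and Mccc1 fell by less (log2 change -0.36, or -0.43 without control 1, for Pcx, and -0.57, or -0.48 without control 1, for Mccc1). Both calls were lost with the length trend removed, and Mccc1 stood at 0.0149 after quantile normalization. Pccb, the partner of Pcca, passed the threshold only with control 1 in the fit (log2 change -0.58, or -0.32 without control 1). Paics, which carboxylates a purine precursor, rose to 578, 587 and 565 TPM, against 293, 429 and 424 TPM in controls 1 to 3 (log2 change 0.61, or 0.43 without control 1).

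Of 6 tested genes around MondoA, a glucose-responsive transcription factor, and its target Txnip, 4 rose and 1 fell, beside 18.5% and 33.7% of all genes. The median log2 change was 1.04 (1.48 without control 1). Txnip, an arrestin-like protein that binds thioredoxin and curbs glucose uptake, had 163, 152 and 194 TPM in low-NaHCO3 medium, against 30.5, 11.8 and 12.9 TPM in controls 1 to 3. Every low-NaHCO3 library was far above every control, among which control 1 was the highest. Txnip changed by 3.26 ± 0.30 on the log2 scale (SE, limma adjusted p = 9.43e-06), or by 3.67 without control 1. The difference was 3.23 from lactic acid and 2.77 from 15% CO2 on the log2 scale. Its promoter is shown for the carbohydrate response element through which MondoA and its partner Mlx are known to bind (GRCm38.p6, chr3:96557707-96557956, plus strand, 250 bases before the start site), with the match in capitals, 85 bases before the start site. The letters searched were CACGNG, any 5 bases and CNCGNG.
Txnip: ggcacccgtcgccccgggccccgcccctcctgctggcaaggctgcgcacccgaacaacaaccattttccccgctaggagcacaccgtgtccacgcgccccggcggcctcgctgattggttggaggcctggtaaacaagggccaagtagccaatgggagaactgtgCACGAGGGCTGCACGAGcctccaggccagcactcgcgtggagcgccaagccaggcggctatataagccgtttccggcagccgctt
The element occurred, on either strand, in 0.28% of all windows and in 0.654% of tested genes with a window, and Txnip was the 1 of 6 members of its list that held it. Its relatives Arrdc4 and Arrdc3 also rose. Arrdc4, an arrestin that like Txnip acts on glucose carriers, had 11.7, 11.4 and 10.3 TPM in low-NaHCO3 medium, against 4.25, 1.52 and 1.04 TPM in controls 1 to 3. Arrdc4 changed by 2.02 ± 0.31 on the log2 scale (SE, limma adjusted p = 2.66e-04), or by 2.42 without control 1. Arrdc3 had 35.3, 37.7 and 35.2 TPM in low-NaHCO3 medium, against 29.7, 13.8 and 13.1 TPM in controls 1 to 3 (log2 change 0.99, or 1.36 without control 1), and control 1 was the control nearest to the low-NaHCO3 libraries in both genes. Mlxip, which encodes MondoA itself, did not pass (0.11 ± 0.09 SE, limma adjusted p = 0.336), and Mlx fell (log2 change -0.56, or -0.56 without control 1).

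Of 20 tested glycolytic genes, 2 rose and 7 fell, where 33.7% of all genes fell, with a median log2 change of -0.15 (-0.34 without control 1), and that median changed sign under some scalings. The number that rose was 1 without control 3, low-NaHCO3 library 1 or low-NaHCO3 library 2. The glucose transporter Slc2a1 (GLUT1) fell, at 39.5, 46.9 and 38.1 TPM in low-NaHCO3 medium, against 106, 79.97 and 73.3 TPM in controls 1 to 3 (log2 change -1.03, or -0.87 without control 1). The neuronal-type transporter Slc2a3 (GLUT3) rose, at 94.8, 92.3 and 93.6 TPM in low-NaHCO3 medium, against 75.1, 46.9 and 49.3 TPM in controls 1 to 3 (log2 change 0.73, or 0.94 without control 1). These 2 carriers of the same sugar went opposite ways. Eno1, enolase, and Ldha, lactate dehydrogenase A, fell (-0.85 and -0.69 on the log2 scale, or -1.07 and -0.93 without control 1). Targets of the hypoxia factor HIF-1 also split, 6 rising and 8 falling of 19, beside 18.5% and 33.7% of all genes. Egln3, an oxygen-dependent prolyl hydroxylase, had 6.89, 10.1 and 5.51 TPM in low-NaHCO3 medium, against 34.9, 29.6 and 25.5 TPM in controls 1 to 3. Egln3 changed by -1.89 ± 0.17 on the log2 scale (SE, limma adjusted p = 9.31e-06), or by -1.78 without control 1. Vegfa, the vascular growth factor, had 75.4, 81.3 and 67.1 TPM in low-NaHCO3 medium, against 109, 131 and 133 TPM in controls 1 to 3 (log2 change -0.73, or -0.82 without control 1). Vegfa was chosen after its values were seen. Ndrg1, a stress- and hypoxia-induced gene, had 29.6, 30.9 and 32.7 TPM in low-NaHCO3 medium, against 18.6, 4.31 and 4.82 TPM in controls 1 to 3 (log2 change 1.92, or 2.53 without control 1), and Adm, adrenomedullin, had 40.7, 48.8 and 46.8 TPM in low-NaHCO3 medium, against 14.3, 23.6 and 21.5 TPM in controls 1 to 3 (log2 change 1.18, or 0.98 without control 1).

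Most genes of the endoplasmic reticulum (ER) protein-folding machinery rose. Of 22 tested ER genes, 14 rose and none fell in both fits, beside 18.5% and 33.7% of all genes. The median log2 change was 0.50 (0.51 without control 1). Hspa5, which encodes BiP, the master chaperone of the ER, had 3589.8, 3226 and 3666 TPM in low-NaHCO3 medium, against 764, 1235 and 1223 TPM in controls 1 to 3. The low-NaHCO3 libraries were each more than 2.5 times the highest control, and the groups were far apart. Hspa5 changed by 1.73 ± 0.20 on the log2 scale (SE, limma adjusted p = 3.97e-05), or by 1.504 without control 1. Manf, a secreted ER stress protein, had 242, 229 and 285 TPM in low-NaHCO3 medium, against 96.4, 128 and 125 TPM in controls 1 to 3. Manf changed by 1.11 ± 0.12 on the log2 scale (SE, limma adjusted p = 2.10e-05), or by 0.98 without control 1. Pdia6, a disulphide isomerase, had 652, 625 and 653 TPM in low-NaHCO3 medium, against 235, 371 and 380.4 TPM in controls 1 to 3. Pdia6 changed by 0.999 ± 0.17 on the log2 scale (SE, limma adjusted p = 4.78e-04), or by 0.77 without control 1. Hyou1, a large ER chaperone, and Xbp1, the transcription factor spliced by IRE1, rose (0.79 and 0.63 on the log2 scale, or 0.61 and 0.62 without control 1). Xbp1 was chosen after its values were seen. Calr and Hsp90b1, abundant ER chaperones chosen after their values were seen, rose by 0.72 and 0.76, but their calls were lost under quantile normalization. Of the ER sensor genes, also chosen after their values were seen, Eif2ak3 (PERK) rose (log2 change 0.50, or 0.59 without control 1), and Ern1 (IRE1) did not pass the threshold (limma adjusted p = 0.850).

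The promoters of Hspa5 (GRCm38.p6, chr2:34771840-34772089, plus strand) and Pdia6 (chr12:17266339-17266588, plus strand) are shown for the ER stress response element, which ATF6 is known to bind with NF-Y. Capitals mark the match to CCAAT, any 9 bases and CCACG. The match starts 65 bases before the start site in Hspa5 and 98 bases before it in Pdia6.
Hspa5: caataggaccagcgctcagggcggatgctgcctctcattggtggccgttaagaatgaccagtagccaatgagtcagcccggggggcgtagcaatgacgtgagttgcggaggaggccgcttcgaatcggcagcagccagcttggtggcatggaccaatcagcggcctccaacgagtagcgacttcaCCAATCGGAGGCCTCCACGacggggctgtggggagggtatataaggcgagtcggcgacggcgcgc
Pdia6: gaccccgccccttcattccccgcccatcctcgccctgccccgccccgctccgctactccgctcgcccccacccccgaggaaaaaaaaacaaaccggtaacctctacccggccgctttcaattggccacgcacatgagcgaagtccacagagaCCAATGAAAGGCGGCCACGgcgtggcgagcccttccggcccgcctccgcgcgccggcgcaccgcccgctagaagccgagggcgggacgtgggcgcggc
On either strand the element occurred in 0.113% of all windows and in 0.166% of tested genes with a window. It occurred in 8 of the 19 ER-list genes with a window, namely Hspa5, Hsp90b1, Calr, Canx, Pdia6, Dnajc3, Creld2 and Syvn1. Its last bases share CACG with the start of the carbohydrate response element, so one stretch can match both.

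Most ER genes were also higher than with lactic acid or 15% CO2. Against lactic acid 16 of 22 were higher and 1 lower (median difference 0.66), and against 15% CO2 13 were higher and none lower (0.55). Among all genes 17.8% and 17.5% were higher in these comparisons. Hspa5 averaged 645 TPM with lactic acid and 868 TPM under 15% CO2.

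Of 26 tested targets of the stress factor ATF4, 4 rose and 7 fell, near the shares of all genes (18.5% and 33.7%). The number lower rests on single libraries: it was 19 without control 1 and 4 without control 2, control 3, low-NaHCO3 library 1 or low-NaHCO3 library 3. Slc7a11, the cystine-glutamate exchanger that supplies cysteine for glutathione, fell most, with 1.49, 2.35 and 1.82 TPM in low-NaHCO3 medium, against 16.2, 17.2 and 15.7 TPM in controls 1 to 3. Slc7a11 changed by -2.60 ± 0.12 on the log2 scale (SE, limma adjusted p = 2.59e-07), or by -2.61 without control 1. The groups were far apart. Psph and Shmt2, enzymes of serine and one-carbon metabolism, fell (-1.11 and -0.87 on the log2 scale, or -1.42 and -1.23 without control 1). The call of Shmt2 was lost when only the 6 compared libraries were fitted. The 4 that rose were Nupr1, Ppp1r15a, Ddit3 and Pycr1. Ddit3, the ER stress factor CHOP, had 74.7, 89.05 and 75.7 TPM in low-NaHCO3 medium, against 33.9, 44.3 and 51.5 TPM in controls 1 to 3. Ddit3 changed by 0.89 ± 0.14 on the log2 scale (SE, limma adjusted p = 3.51e-04), or by 0.72 without control 1. Ppp1r15a (GADD34), which restores translation after stress, had 95.9, 86.3 and 92.9 TPM in low-NaHCO3 medium, against 41.1, 56.4 and 51.1 TPM in controls 1 to 3. Ppp1r15a changed by 0.89 ± 0.11 on the log2 scale (SE, limma adjusted p = 5.67e-05), or by 0.76 without control 1. Nupr1, a stress-induced chromatin protein, rose (log2 change 1.16, or 0.87 without control 1). Atf4 itself, chosen after its values were seen, had 356, 368 and 389 TPM in low-NaHCO3 medium, against 380.4, 573 and 573 TPM in controls 1 to 3, and control 1 lay within the low-NaHCO3 range (log2 change -0.43, or -0.63 without control 1).

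Lipid synthesis genes fell. Cholesterol is built from acetyl-CoA through mevalonate and squalene, and fatty acids are built from acetyl-CoA by way of the ACACA step named above. Of 24 tested cholesterol genes, 13 fell and none rose in both fits, beside 33.7% and 18.5% of all genes. The median log2 change of -0.60 (-0.61 without control 1) stayed below that of all genes, between -0.71 and -0.38, under the alternatives. Acat2, which makes acetoacetyl-CoA at the entry of the pathway, had 19.5, 19.5 and 18.5 TPM in low-NaHCO3 medium, against 54.1, 68.6 and 67.8 TPM in controls 1 to 3. Acat2 changed by -1.67 ± 0.15 on the log2 scale (SE, limma adjusted p = 6.86e-06), or by -1.78 without control 1. Mvk and Pmvk, the kinases of mevalonate, fell (-1.48 and -1.27 on the log2 scale, or -1.56 and -1.15 without control 1). Sqle, squalene epoxidase, had 19.3, 21.1 and 22.4 TPM in low-NaHCO3 medium, against 52.7, 66.99 and 68.7 TPM in controls 1 to 3. Sqle changed by -1.53 ± 0.10 on the log2 scale (SE, limma adjusted p = 1.54e-06), or by -1.65 without control 1. In Acat2 and Sqle every low-NaHCO3 library was far below the lowest control.

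Against lactic acid 7 of 24 cholesterol genes were lower and 5 higher, with a median difference of -0.12. This was near all genes, of which 30.8% were lower and 17.8% higher (median -0.16). Against 15% CO2 10 were lower and 3 higher, with a median of -0.22, beside 33.7% and 17.5% of all genes (median -0.20). Sqle averaged 41.9 TPM with lactic acid and 49.4 TPM under 15% CO2.

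Of 10 tested fatty acid genes, 7 fell and none rose, beside 33.7% and 18.5% of all genes. The median log2 change was -0.60 (-0.59 without control 1). Scd2, the stearoyl-CoA desaturase of brain, had 254, 265 and 228 TPM in low-NaHCO3 medium, against 1144, 1279.8 and 1262 TPM in controls 1 to 3. Scd2 changed by -2.30 ± 0.10 on the log2 scale (SE, limma adjusted p = 1.76e-07), or by -2.35 without control 1. Elovl6, which elongates palmitate, had 13.3, 15.01 and 13.4 TPM in low-NaHCO3 medium, against 60.4, 64.5 and 62.2 TPM in controls 1 to 3. Elovl6 changed by -2.09 ± 0.08 on the log2 scale (SE, limma adjusted p = 5.28e-08), or by -2.12 without control 1. In both genes the libraries of each group lay close together and the groups far apart. The desaturase Fads2 and the citrate lyase Acly, which supplies cytosolic acetyl-CoA, fell (-0.77 and -0.69 on the log2 scale, or -0.88 and -0.70 without control 1).

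**Figure D3:**
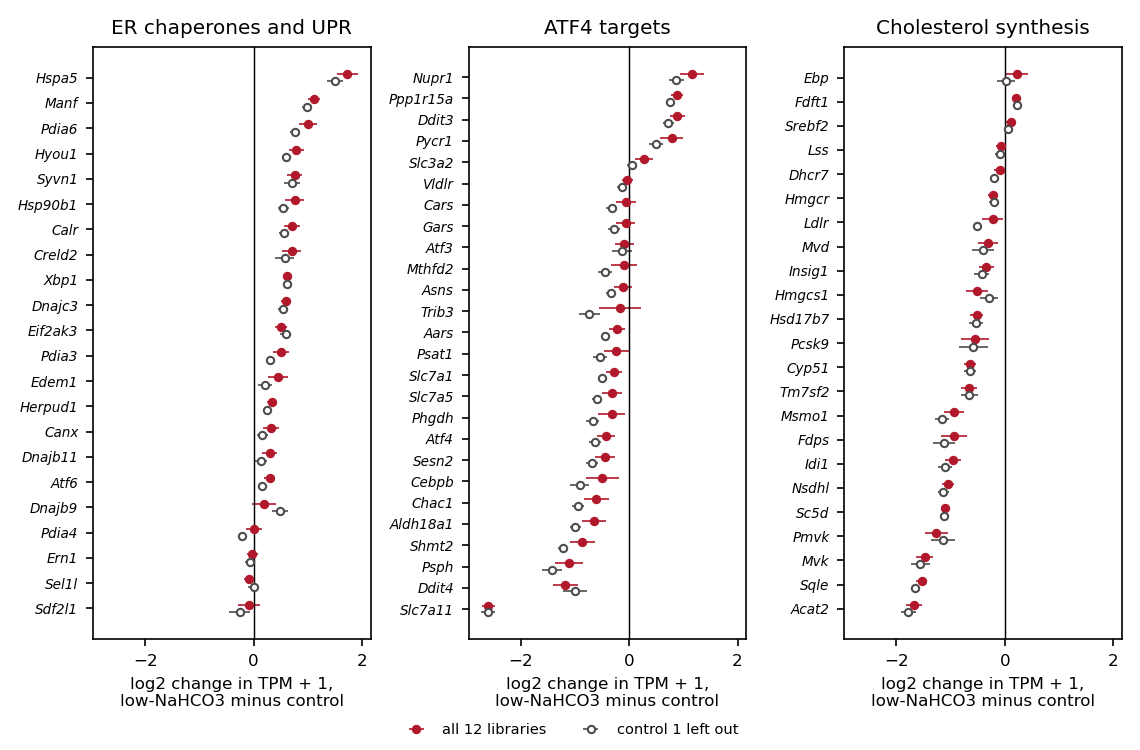
Log2 change in TPM + 1, low-NaHCO3 minus control, with its SE, for genes of 3 lists, in all 12 libraries (red) and without control 1 (open). ER genes lie mostly right of 0 up to Hspa5 (1.73), ATF4 targets spread on both sides down to Slc7a11 (-2.60), and cholesterol genes lie mostly left of 0.

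RNAs made in the mitochondrion made up a smaller part of the low-NaHCO3 libraries. The 13 mitochondrially encoded mRNAs, which code for core subunits of the respiratory chain and ATP synthase, took 10.4%, 10.4% and 10.9% of TPM in low-NaHCO3 medium, against 19.7%, 15.6% and 16.3% in controls 1 to 3. The means were 10.6% ± 0.258 in low-NaHCO3 medium and 17.2% ± 2.20 in control (SD, n = 3 each), and the groups did not overlap. The log2 difference of the sums was -0.70, with p = 0.1 in a two-sided exact permutation test, the smallest p that 3 against 3 libraries allow, and -0.60 without control 1 (exact p = 0.2, again the smallest possible). The share averaged 20.1% ± 6.73 with lactic acid and 20.3% ± 4.60 under 15% CO2 (SD, n = 3 each).

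The 13 mRNAs differed among themselves. In the fit of single genes, 8 of 13 fell and none rose, beside 33.7% and 18.5% of all genes. The median log2 change was -1.09 (-1.06 without control 1). Complex I subunits were among both those that fell most and those that missed the threshold. mt-Nd1 had 7419.6, 7839.9 and 7864 TPM in low-NaHCO3 medium, against 43413, 39502 and 41803 TPM in controls 1 to 3. mt-Nd1 changed by -2.43 ± 0.41 on the log2 scale (SE, limma adjusted p = 5.63e-04), or by -2.40 without control 1. mt-Nd3 had 42.7, 32.3 and 32.97 TPM in low-NaHCO3 medium, against 197, 186 and 195 TPM in controls 1 to 3. mt-Nd3 changed by -2.40 ± 0.19 on the log2 scale (SE, limma adjusted p = 3.64e-06), or by -2.38 without control 1. mt-Nd4l and mt-Nd4, also of complex I, fell (-2.102 and -1.59 on the log2 scale, or -1.92 and -1.44 without control 1). mt-Nd5, of complex I too, did not pass the threshold (log2 change -0.76 ± 0.32 SE, limma adjusted p = 0.0618, and -0.63 without control 1). mt-Co1, the catalytic subunit of cytochrome oxidase, had 62196, 60277 and 66269 TPM in low-NaHCO3 medium, against 57077, 42799 and 45807 TPM in controls 1 to 3. Every low-NaHCO3 library was above every control, but mt-Co1 did not pass the threshold (log2 change 0.38 ± 0.55 SE, limma adjusted p = 0.573). Without a filter on low values 3 of the 13 passed, and mt-Nd1, mt-Nd4, mt-Nd2 and mt-Cytb were among those whose calls were lost. Nuclear copies of mitochondrial DNA can take up reads of these genes, and the sources used here name no counting rule. Among nuclear-encoded subunits of oxidative phosphorylation the counts were 1 rising and 4 falling of 25 in both fits (the number lower was 5 with all libraries and 3 without control 2, control 3, low-NaHCO3 library 1 or low-NaHCO3 library 2), with a median log2 change of -0.09 (-0.10 without control 1). Of all genes, 18.5% rose and 33.7% fell, with a median of -0.20 (-0.17 without control 1), so this list fell less often than all genes.

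**Figure D4:**
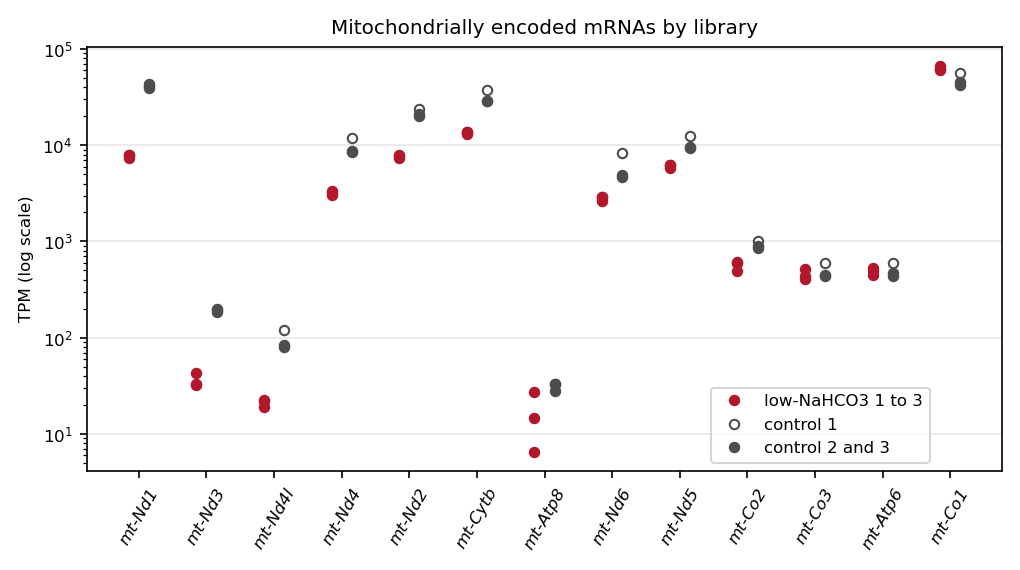
Level of the 13 mitochondrially encoded mRNAs in TPM on a log axis, 1 point a library, with low-NaHCO3 libraries in red left of control 1 (open) and controls 2 and 3 (grey). The groups lie far apart at mt-Nd1 (7419.6, 7839.9 and 7864 TPM in low-NaHCO3 medium, against 43413, 39502 and 41803 TPM in controls 1 to 3), while mt-Co1 lies higher in low-NaHCO3 medium (62196, 60277 and 66269 TPM in low-NaHCO3 medium, against 57077, 42799 and 45807 TPM in controls 1 to 3) without passing the test.

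Genes of mitosis rose, while most regulators of entry into S phase did not. Of 32 tested mitotic genes, 25 rose and none fell, beside 18.5% and 33.7% of all genes. The median log2 change was 0.81 with all libraries and 0.49 without control 1, and in all 32 genes control 1 was the lowest of the controls. Cenpa, the centromere-specific histone, had 351, 340.1 and 319.9 TPM in low-NaHCO3 medium, against 52.7, 103 and 105 TPM in controls 1 to 3. Cenpa changed by 2.01 ± 0.22 on the log2 scale (SE, limma adjusted p = 2.87e-05), or by 1.68 without control 1. Anln, the scaffold of the cytokinetic ring, had 441, 481 and 396 TPM in low-NaHCO3 medium, against 105, 190.0 and 191 TPM in controls 1 to 3. Anln changed by 1.48 ± 0.19 on the log2 scale (SE, limma adjusted p = 8.85e-05), or by 1.20 without control 1. Kif23, a motor of the central spindle, had 171, 175 and 158 TPM in low-NaHCO3 medium, against 40.7, 73.8 and 74.1 TPM in controls 1 to 3 (log2 change 1.45, or 1.17 without control 1). Control 1 was well below controls 2 and 3 in all 3 genes, and the low-NaHCO3 libraries were above all controls. Prc1, Cdc25c and Top2a rose (1.37, 1.43 and 1.25 on the log2 scale, or 1.10, 1.12 and 0.93 without control 1). Mki67, a common marker of cycling cells chosen after its values were seen, had 431, 460.0 and 383 TPM in low-NaHCO3 medium, against 191, 351 and 354 TPM in controls 1 to 3. It did not pass the threshold with all libraries (log2 change 0.56 ± 0.22 SE, limma adjusted p = 0.0506) or without control 1 (0.27, limma adjusted p = 0.115), and control 1 was far below the other controls. Against lactic acid 18 of 32 mitotic genes were higher and none lower, and against 15% CO2 19 were higher and none lower, beside 17.8% and 17.5% of all genes higher.

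Of 21 tested regulators of the G1/S transition, 1 rose and 6 fell in both fits, where 33.7% of all genes fell. The number lower was 10 without control 1 and 3 without control 2, control 3 or low-NaHCO3 library 1 or 3. The cyclins Ccne1 and Ccne2, which drive entry into S phase with CDK2, both fell. Ccne1 had 25.7, 22.2 and 24.2 TPM in low-NaHCO3 medium, against 31.6, 49.3 and 50.9 TPM in controls 1 to 3. Ccne2 had 33.7, 28.7 and 35.9 TPM in low-NaHCO3 medium, against 45.1, 74.04 and 72.4 TPM in controls 1 to 3. The groups did not overlap, and control 1 was the control nearest to the low-NaHCO3 libraries. Their log2 changes were -0.82 ± 0.16 and -0.91 ± 0.17 (SE), or -1.03 and -1.14 without control 1. The gene that rose was Myc, a growth factor-responsive transcription factor, at 125, 128 and 119 TPM in low-NaHCO3 medium, against 47.7, 83.97 and 90.2 TPM in controls 1 to 3 (log2 change 0.79, or 0.50 without control 1). Of 30 replication genes, 6 rose and 3 fell in both fits, beside 18.5% and 33.7% of all genes. Both counts moved by over 1.5 times when single libraries were left out: those higher numbered 11 without control 2 and 4, 4 and 3 without low-NaHCO3 libraries 1, 2 and 3, and those lower numbered 9 without control 1. Cdt1, which licenses replication origins, rose (log2 change 1.17, or 0.79 without control 1), while Tyms, thymidylate synthase, fell (log2 change -1.14, or -1.45 without control 1).

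**Figure D5:**
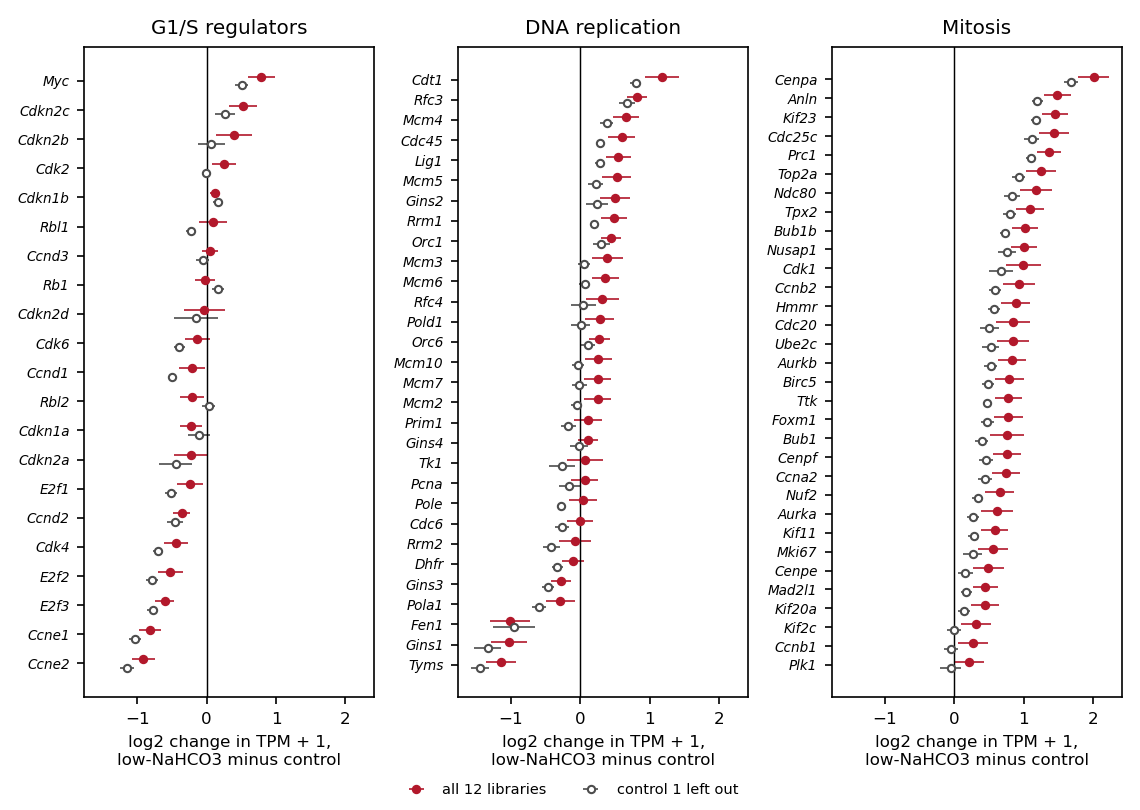
Log2 change in TPM + 1, low-NaHCO3 minus control, with its SE, for each tested gene of 3 cell-cycle lists, in all 12 libraries (red) and without control 1 (open). All mitotic genes lie right of 0 up to Cenpa (2.01), with the open point left of the red one, while G1/S regulators and replication genes lie on both sides, down to Ccne2 (-0.91) and Tyms (-1.14).

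Targets of the mechanosensitive coactivators YAP and TAZ rose. Of 14 tested, 12 rose and none fell in both fits, beside 18.5% and 33.7% of all genes. The median log2 change was 0.75 (0.51 without control 1). Ccn1 (CYR61), a secreted matrix-associated protein, had 1599, 1689.7 and 1567 TPM in low-NaHCO3 medium, against 131, 219.5 and 239 TPM in controls 1 to 3. Ccn1 changed by 3.08 ± 0.18 on the log2 scale (SE, limma adjusted p = 5.82e-07), or by 2.81 without control 1. Ccn2 (CTGF) had 85.5, 91.2 and 74.99 TPM in low-NaHCO3 medium, against 44.1, 25.6 and 26.2 TPM in controls 1 to 3. Ccn2 changed by 1.41 ± 0.19 on the log2 scale (SE, limma adjusted p = 1.22e-04), or by 1.65 without control 1. Lats2, the kinase that restrains YAP and is also its target, had 53.9, 52.9 and 49.1 TPM in low-NaHCO3 medium, against 13.7, 15.9 and 16.1 TPM in controls 1 to 3. Lats2 changed by 1.71 ± 0.10 on the log2 scale (SE, limma adjusted p = 5.82e-07), or by 1.64 without control 1. The groups did not overlap in any of the 3 genes. Against lactic acid 5 of the 14 were higher and 1 lower, with a median difference of 0.06, and against 15% CO2 5 were higher, with a median of 0.28. All genes had medians of -0.16 and -0.20 in these comparisons, with 17.8% and 17.5% higher. Ccn1 averaged 504 TPM with lactic acid and 291 TPM under 15% CO2 and was higher in low-NaHCO3 medium than in either (differences of 1.68 and 2.47 on the log2 scale, limma adjusted p = 3.03e-05 and 2.54e-06).

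Immediate early genes are those that growth factors and stress induce within minutes. Of 24 tested, 13 rose and 3 fell in both fits, beside 18.5% and 33.7% of all genes. The median log2 change was 0.74 in each fit. Zfp36, which destabilises cytokine mRNAs, had 46.01, 51.4 and 50.4 TPM in low-NaHCO3 medium, against 10.2, 9.76 and 10.4 TPM in controls 1 to 3. Zfp36 changed by 2.18 ± 0.14 on the log2 scale (SE, limma adjusted p = 1.12e-06), or by 2.18 without control 1. Fosl1, a subunit of the factor AP-1, had 137, 134 and 143 TPM in low-NaHCO3 medium, against 26.6, 46.4 and 49.5 TPM in controls 1 to 3. Fosl1 changed by 1.78 ± 0.19 on the log2 scale (SE, limma adjusted p = 2.90e-05), or by 1.503 without control 1. Egr1 had 199, 197 and 203 TPM in low-NaHCO3 medium, against 132, 38.7 and 37.4 TPM in controls 1 to 3. Egr1 changed by 1.77 ± 0.37 on the log2 scale (SE, limma adjusted p = 0.00205), or by 2.36 without control 1. Control 1 stood well above the other controls. For Fos and Nr4a1, chosen after their values were seen, control 1 was the highest of the 6 libraries (Fos had 21.3, 15.9 and 24.7 TPM in low-NaHCO3 medium, against 34.7, 3.995 and 4.51 TPM in controls 1 to 3), and both passed the threshold only without it. The log2 changes were 1.10, or 2.03 without control 1, for Fos, and 0.96, or 1.80 without control 1, for Nr4a1. Jund, a repressive AP-1 subunit, and Klf2 fell (-1.36 and -1.19 on the log2 scale, or -1.04 and -0.94 without control 1).

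Of 21 tested matrix genes, 8 rose and 3 fell in both fits, beside 18.5% and 33.7% of all genes. Thbs1, thrombospondin 1, had 324, 321 and 291 TPM in low-NaHCO3 medium, against 92.5, 137 and 148 TPM in controls 1 to 3. Thbs1 changed by 1.33 ± 0.15 on the log2 scale (SE, limma adjusted p = 3.09e-05), or by 1.13 without control 1. Col4a1, of the basement membrane, rose (log2 change 1.02, or 0.75 without control 1). Of the fibrillar collagens, Col3a1 had 16.8, 14.8 and 15.7 TPM in low-NaHCO3 medium, against 24.6, 38.3 and 40.7 TPM in controls 1 to 3. Col3a1 changed by -1.05 ± 0.17 on the log2 scale (SE, limma adjusted p = 3.46e-04), or by -1.27 without control 1. Col1a1 also fell and lay near 1 TPM (0.850, 1.07 and 0.651 TPM, against 3.63, 3.23 and 3.34 TPM in controls 1 to 3).

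Components of the transforming growth factor (TGF)-beta and bone morphogenetic protein (BMP) pathways fell in 9 and rose in 3 of 19 tested genes. The shares of all genes were 33.7% and 18.5%. Among ligands, Tgfb1 rose, with 81.6, 85.998 and 88.4 TPM in low-NaHCO3 medium, against 17.6, 25.9 and 27.7 TPM in controls 1 to 3. Tgfb1 changed by 1.83 ± 0.15 on the log2 scale (SE, limma adjusted p = 5.20e-06), or by 1.63 without control 1. The receptor Tgfbr2 fell, with 7.92, 8.52 and 7.63 TPM in low-NaHCO3 medium, against 20.4, 28.4 and 27.3 TPM in controls 1 to 3. Tgfbr2 changed by -1.54 ± 0.12 on the log2 scale (SE, limma adjusted p = 2.93e-06), or by -1.68 without control 1. The secreted BMP antagonist Grem1 had 18.2, 18.9 and 15.6 TPM in low-NaHCO3 medium, against 56.1, 75.7 and 73.2 TPM in controls 1 to 3. Grem1 changed by -1.90 ± 0.12 on the log2 scale (SE, limma adjusted p = 1.07e-06), or by -2.03 without control 1. Of the BMP target genes, Id2, an inhibitor of differentiation factors, had 35.6, 34.98 and 38.3 TPM in low-NaHCO3 medium, against 211, 126 and 132 TPM in controls 1 to 3. Id2 changed by -2.04 ± 0.16 on the log2 scale (SE, limma adjusted p = 4.29e-06), or by -1.80 without control 1. Id1 also fell (log2 change -0.99, or -1.20 without control 1). Smad7, the feedback inhibitor of TGF-beta signalling, rose (log2 change 0.87, or 0.88 without control 1).

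Of 19 tested clock genes, 8 rose and 4 fell in both fits, beside 18.5% and 33.7% of all genes, and 12 and 5 passed without control 1. Per1, a core repressor of the clock, had 125, 92.9 and 134 TPM in low-NaHCO3 medium, against 45.2, 11.1 and 11.95 TPM in controls 1 to 3. Per1 changed by 2.59 ± 0.40 on the log2 scale (SE, limma adjusted p = 3.11e-04), or by 3.22 without control 1. Nr1d1 (REV-ERB alpha), a repressor in the second loop of the clock, had 162, 138 and 172 TPM in low-NaHCO3 medium, against 49.6, 30.9 and 33.6 TPM in controls 1 to 3. Nr1d1 changed by 2.04 ± 0.19 on the log2 scale (SE, limma adjusted p = 1.11e-05), or by 2.25 without control 1. Ciart, a further repressor, had 78.2, 57.3 and 84.9 TPM in low-NaHCO3 medium, against 20.3, 25.3 and 23.4 TPM in controls 1 to 3. Ciart changed by 1.62 ± 0.14 on the log2 scale (SE, limma adjusted p = 6.44e-06), or by 1.53 without control 1. In each, all low-NaHCO3 libraries were above all controls. The 4 that fell (Npas2, Tef, Cry1 and Clock) changed less, and their number was 2 without low-NaHCO3 library 2 and 1 without library 3. Clock fell (log2 change -0.28, or -0.20 without control 1), and its sign turned under removal of the length trend (0.10). Times of day of the harvests are not given in the labels used here.

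Of 13 tested astrocyte markers, 5 fell and none rose in both fits, and 8 were lower without control 2. The share that fell was near the 33.7% of all genes. Sox2, a factor of neural progenitors and glia, had 62.1, 59.2 and 58.5 TPM in low-NaHCO3 medium, against 212, 304 and 328 TPM in controls 1 to 3. Sox2 changed by -2.19 ± 0.14 on the log2 scale (SE, limma adjusted p = 1.17e-06), or by -2.38 without control 1. Hes1, a target of Notch, had 16.95, 19.03 and 19.3 TPM in low-NaHCO3 medium, against 33.8, 51.5 and 53.97 TPM in controls 1 to 3. Hes1 changed by -1.26 ± 0.17 on the log2 scale (SE, limma adjusted p = 1.13e-04), or by -1.47 without control 1. Nfib, a factor of gliogenesis, fell (log2 change -1.07, or -1.11 without control 1). In Sox2 and Hes1 control 1 was the lowest control. Of 9 tested amino acid and glutamate carriers and enzymes, 5 fell and 1 rose (2 without control 1), beside 33.7% and 18.5% of all genes. Slc38a2 (SNAT2), a sodium-coupled importer of small neutral amino acids, had 35.1, 36.02 and 29.4 TPM in low-NaHCO3 medium, against 121, 139 and 138 TPM in controls 1 to 3. Slc38a2 changed by -1.96 ± 0.10 on the log2 scale (SE, limma adjusted p = 2.76e-07), or by -2.02 without control 1. The glutamine importer Slc1a5 (ASCT2) had 17.6, 21.6 and 13.7 TPM in low-NaHCO3 medium, against 27.8, 52.7 and 50.3 TPM in controls 1 to 3. Slc1a5 changed by -1.23 ± 0.24 on the log2 scale (SE, limma adjusted p = 0.00144), or by -1.52 without control 1. Serpina3n, a secreted protease inhibitor of reactive astrocytes, fell, with 9.65, 11.02 and 11.1 TPM in low-NaHCO3 medium, against 37.8, 36.4 and 43.8 TPM in controls 1 to 3. Serpina3n changed by -1.80 ± 0.15 on the log2 scale (SE, limma adjusted p = 4.35e-06), or by -1.82 without control 1. Clcf1, a cytokine of the CNTF family in the same list, rose, with 293, 279 and 255 TPM in low-NaHCO3 medium, against 43.9, 82.6 and 84.3 TPM in controls 1 to 3. Clcf1 changed by 2.01 ± 0.20 on the log2 scale (SE, limma adjusted p = 1.40e-05), or by 1.71 without control 1. Of the 20 tested reactive-astrocyte genes, 10 rose and 2 fell in both fits, beside 18.5% and 33.7% of all genes (4 were lower with all libraries, and 2 without control 1 or any 1 of the low-NaHCO3 libraries). Among them, 3 of the 6 most raised, Gbp2, H2-T23 and H2-D1, are also known as interferon-inducible genes, as is Cxcl10.

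The greatest fall among the named genes was that of a binding protein of insulin-like growth factors (IGFs). Of 12 tested genes of this pathway, 4 fell and 2 rose (1 without control 2, control 3, low-NaHCO3 library 1 or low-NaHCO3 library 2), near the shares of all genes (33.7% and 18.5%). Igfbp5 had 3.58, 3.41 and 3.47 TPM in low-NaHCO3 medium, against 133, 57.9 and 76.8 TPM in controls 1 to 3. Igfbp5 changed by -4.24 ± 0.29 on the log2 scale (SE, limma adjusted p = 1.60e-06), or by -3.91 without control 1. Every low-NaHCO3 library was under 4 TPM, and no control was under 57. Igfbp3, the main IGF carrier of serum, had 49.1, 51.8 and 51.2 TPM in low-NaHCO3 medium, against 208, 278 and 295 TPM in controls 1 to 3. Igfbp3 changed by -2.32 ± 0.12 on the log2 scale (SE, limma adjusted p = 2.93e-07), or by -2.48 without control 1. Igfbp5 averaged 116 TPM with lactic acid and 263 TPM under 15% CO2.

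Lysosomal genes rose more often than they fell, 10 and 5 of 24, beside 18.5% and 33.7% of all genes. The number that fell was 3 without control 2 or 3 and 2 without low-NaHCO3 library 2 or 3. Hexa, a subunit of the ganglioside-degrading hexosaminidase, had 705, 774 and 722 TPM in low-NaHCO3 medium, against 208, 298 and 301 TPM in controls 1 to 3. Hexa changed by 1.46 ± 0.14 on the log2 scale (SE, limma adjusted p = 9.65e-06), or by 1.29 without control 1. Npc2, which hands cholesterol on in the lysosome, had 359, 354 and 364 TPM in low-NaHCO3 medium, against 127, 201 and 213 TPM in controls 1 to 3. Npc2 changed by 1.02 ± 0.20 on the log2 scale (SE, limma adjusted p = 0.00123), or by 0.79 without control 1. Neu1, the lysosomal sialidase, fell, with 18.3, 15.9 and 14.01 TPM in low-NaHCO3 medium, against 48.4, 54.04 and 52.2 TPM in controls 1 to 3. Neu1 changed by -1.63 ± 0.10 on the log2 scale (SE, limma adjusted p = 1.06e-06), or by -1.67 without control 1. Of 23 autophagy genes, 8 rose and 3 fell, beside the same shares of all genes. Atg12, a ubiquitin-like conjugation factor, had 72.7, 66.7 and 76.2 TPM in low-NaHCO3 medium, against 36.1, 31.6 and 30.8 TPM in controls 1 to 3 (log2 change 1.11, or 1.18 without control 1), and Nbr1, a cargo receptor, rose as well (log2 change 1.10, or 1.14 without control 1).

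Of 26 tested ribosome biogenesis genes, 12 fell and 3 rose in both fits, where 33.7% of all genes fell, and 19 were lower without control 1, where 40.9% of all genes were. Those higher numbered 4 with all libraries and 1, 2 and 1 without low-NaHCO3 libraries 1, 2 and 3. Ubtf, the factor of RNA polymerase I, had 46.9, 49.4 and 47.9 TPM in low-NaHCO3 medium, against 101.2, 100.6 and 97.9 TPM in controls 1 to 3. Ubtf changed by -1.04 ± 0.07 on the log2 scale (SE, limma adjusted p = 1.32e-06), or by -1.03 without control 1. Bop1, of large-subunit maturation, had 39.3, 39.999 and 41.6 TPM in low-NaHCO3 medium, against 65.98, 100.7 and 92.6 TPM in controls 1 to 3. Bop1 changed by -1.06 ± 0.14 on the log2 scale (SE, limma adjusted p = 8.77e-05), or by -1.24 without control 1. Of 38 ribosomal protein genes, which have many processed pseudogenes that can take up reads, 7 rose in both fits, near the 18.5% of all genes, and none fell. In 32 of the 38, however, every low-NaHCO3 library was above every control, beside 23.8% of all genes. Their median log2 change was 0.65 (0.42 without control 1), beside -0.20 (-0.17) for all genes. The number called higher was 17 with all libraries, 7 without control 1, 7, 8 and 4 without low-NaHCO3 libraries 1, 2 and 3, 30 after median-of-ratios scaling and 9 after quantile normalization. Among cytosolic heat shock genes 6 of 16 fell and 1 rose in both fits, near the 33.7% of all genes that fell, and without control 1 alone 12 were lower and 2 higher. Hsph1, a nucleotide exchange factor of HSP70, had 53.9, 53.03 and 52.1 TPM in low-NaHCO3 medium, against 135, 122 and 119 TPM in controls 1 to 3. Hsph1 changed by -1.22 ± 0.07 on the log2 scale (SE, limma adjusted p = 4.71e-07), or by -1.17 without control 1. Cryab, a small heat shock protein, rose (log2 change 1.04, or 0.90 without control 1).

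The remaining genes among the 15 named as most lowered had varied roles. Gdf11, a secreted TGF-beta family ligand, had 7.13, 8.37 and 8.87 TPM in low-NaHCO3 medium, against 67.3, 76.2 and 78.9 TPM in controls 1 to 3. Gdf11 changed by -3.04 ± 0.10 on the log2 scale (SE, limma adjusted p = 5.28e-08), or by -3.11 without control 1. Gjc3, a connexin of glia, had 6.28, 5.51 and 5.33 TPM in low-NaHCO3 medium, against 48.5, 44.8 and 47.4 TPM in controls 1 to 3. Gjc3 changed by -2.84 ± 0.10 on the log2 scale (SE, limma adjusted p = 5.28e-08), or by -2.81 without control 1. Erbb3, a neuregulin receptor chain of glial cells, had 5.74, 5.20 and 5.28 TPM in low-NaHCO3 medium, against 27.2, 38.4 and 40.9 TPM in controls 1 to 3. Erbb3 changed by -2.49 ± 0.14 on the log2 scale (SE, limma adjusted p = 5.51e-07), or by -2.67 without control 1. These 3 genes were each lower in every low-NaHCO3 library than in any control. Myog, the muscle differentiation factor myogenin, was expressed in this line and had 0.355, 0.335 and 0.892 TPM in low-NaHCO3 medium, against 12.8, 8.92 and 10.4 TPM in controls 1 to 3. Myog changed by -2.94 ± 0.22 on the log2 scale (SE, limma adjusted p = 2.71e-06), or by -2.82 without control 1. Marcksl1, a membrane-cytoskeleton protein, and Gas1, a growth-arrest protein of the membrane, fell (-2.68 and -2.61 on the log2 scale, or -2.48 and -2.60 without control 1). Slc35g1, Lbhd1, Chst12 and Wscd1 fell by similar amounts (log2 changes of -2.76, -2.66, -2.68 and -2.92, or -2.96, -2.85, -2.51 and -2.50 without control 1).

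Targets of 2 further stress factors moved both ways. Targets of p53 rose in 6 and fell in 4 of 22, and targets of the antioxidant factor NRF2 rose in 3 and fell in 5 of 19, with 9 lower without control 1 and 5 higher without control 3. Of all genes, 18.5% rose and 33.7% fell.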

How the data were processed

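RNA-seq of C8-D1A cells was deposited by the authors as 1 table of TPM values for 12 libraries, and the submitters' processing notes name fastp 0.22.0, HISAT2 2.1.0 and the GRCm39 build. The sources used here name no read counter, annotation or strand setting, so overlapping, antisense and near-identical genes are uncertain. Of 21959 identifiers, 21851 had a symbol. Depth is unknown, since TPM keeps no counts, and no interval for counting error can be given. Groups were taken from the labels. Genes reaching 1 TPM in 3 or more of the 12 libraries were tested on log2(TPM + 1), which understates changes of low genes, with limma 3.58.1 (R 4.3.3, group means, trended prior, Benjamini-Hochberg adjustment over all tested genes, threshold 0.05), with 12 libraries and again without control 1. Fits were tested on simulated data. The mitochondrial sum was tested with an exact permutation test. Alternatives were another pseudocount (0.1), filter (none, 5 TPM), scaling, prior, sample set and replicate block, and each replicate left out.

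Named genes were the 15 highest and 15 lowest changes past the threshold in both fits with the groups apart and at least 5 TPM in a group, without predicted genes, and up to 6 a direction from each list, both ranked by the smaller change of the 2 fits. Every member of the lists on acid-base balance, Txnip and mitochondrial mRNAs could be named. The lists and genes were chosen with earlier results of these data known. Genes named beyond the rule, apart from cell type markers and motif matches, are marked as chosen after their values were seen. Some list members are counted but not reported here by name. Promoters are RefSeq sequence of GRCm38.p6, while the submitters' notes name GRCm39, so no coordinates were carried between them. The amino acid response element was also searched in ATF4 targets, and the sterol response element in cholesterol genes. They occurred in 4 of 24 and 1 of 17 list genes with a window, beside 0.477% and 1.31% of tested genes with a window.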

Additional observations from a re-analysis of the deposited data

How the results depend on the processing

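The split between higher and lower genes depended on processing. Against control, the number of higher genes was 3683 with the length trend removed, 3984 with control 1 left out and median-of-ratios scaling, and 4051 with control 1 left out and the length trend removed, beside 2442 on TPM. The number of lower genes was 2708 after quantile normalization, beside 4316. Against lactic acid, higher genes numbered 3368 after median-of-ratios scaling and lower genes 2527 after quantile normalization. Against 15% CO2, higher genes numbered 3490 after median-of-ratios scaling and 3379 with the length trend removed, and lower genes 2660 after quantile normalization. The share of calls that were higher was 36.6% on TPM and 54.2%, 49.6%, 25.8% and 54.6% under median-of-ratios, quantile, no-mitochondrial and length-corrected values against lactic acid, and 34.2%, 53.6%, 49.6%, 24.4% and 54.9% against 15% CO2. The cause was not tested. Leaving out single replicates gave 1937 to 2781 higher and 3399 to 5005 lower genes against control, 1602 to 2020 and 2960 to 3506 against lactic acid, and 1618 to 2094 and 3373 to 3769 against 15% CO2. The lactic acid and 15% CO2 libraries were left out in turn after the data were seen. The mitochondrial sum stayed lower by 0.60 to 0.76 on the log2 scale when single libraries were left out (-0.60 to -0.76), and by 0.51 after median-of-ratios scaling (-0.51).

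No pairing by replicate number was seen: deviations of same-numbered libraries from their group means correlated at -0.0019, -0.021 and 0.0040. The check cannot exclude pairing, because control 1 stood apart and the deviations of all controls largely follow that difference. With a replicate block 2447 genes were higher and 4332 lower than control (2763 and 5092 without control 1), 2200 and 3753 against lactic acid, and 2155 and 4128 against 15% CO2.

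Of 377 genes followed through 22 alternatives, 261 lost no call and kept their sign in all of them, 114 lost a call in at least 1, and 4 changed sign: Mccc1 (0.0149, quantile normalization), Clock (0.10 with the length trend removed, 0.0336 also without control 1), Ifnar1 (-0.0185 without mitochondrial and the most abundant genes) and Ern1. The change of Ern1, which passed the threshold in neither fit, was 0.15, 0.35 and 0.31 under median-of-ratios, quantile and length-corrected values, 0.098, 0.17 and 0.15 under the same without control 1, and -0.0958 to 0.0403 when single libraries were left out. Interferon, ER, mitotic, cholesterol and fatty acid lists kept the sign of their medians under every alternative run, while the medians of replication, ATF4, glycolysis, carbonic anhydrase, matrix and G1/S lists did not. With the depth unknown, no lower limit of detection can be given.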

Other observations

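Gene families outside the lists above were collected by symbol after values had been seen. All 9 tested genes of the Ifi200 family, nuclear DNA sensors encoded in 1 cluster, rose in both fits, beside 18.5% of all genes. The family's median log2 change was 1.94 (1.75 without control 1). Ifi207 had 83.1, 100.7 and 80.01 TPM in low-NaHCO3 medium, against 5.42, 7.28 and 8.28 TPM in controls 1 to 3. Ifi207 changed by 3.48 ± 0.18 on the log2 scale (SE, limma adjusted p = 3.53e-07), or by 3.33 without control 1. Ifi204 had 172, 189 and 154 TPM in low-NaHCO3 medium, against 39.9, 60.02 and 66.3 TPM in controls 1 to 3. Ifi204 changed by 1.64 ± 0.16 on the log2 scale (SE, limma adjusted p = 1.34e-05), or by 1.42 without control 1. Of 14 tested class I and II genes of antigen presentation, 7 rose in both fits and none fell, beside 18.5% and 33.7% of all genes. Of other genes of this pathway, likewise chosen after their values were seen, Tap1, a subunit of the peptide transporter into the ER, had 26.3, 28.7 and 26.7 TPM in low-NaHCO3 medium, against 4.42, 3.51 and 4.46 TPM in controls 1 to 3. Tap1 changed by 2.46 ± 0.19 on the log2 scale (SE, limma adjusted p = 2.86e-06), or by 2.51 without control 1. Tapbp, which loads class I molecules, had 97.2, 108 and 97.2 TPM in low-NaHCO3 medium, against 36.3, 40.3 and 41.9 TPM in controls 1 to 3 (log2 change 1.33, or 1.27 without control 1). The class I chain H2-K1 had 204, 211 and 197 TPM in low-NaHCO3 medium, against 96.3, 94.2 and 99.8 TPM in controls 1 to 3 (log2 change 1.07, or 1.07 without control 1). Its light chain B2m had 4896, 5057 and 5541 TPM in low-NaHCO3 medium, against 2369, 3175 and 3436 TPM in controls 1 to 3 (log2 change 0.80, or 0.64 without control 1). Class I genes are near-identical to each other, so their single values are uncertain.

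Histone genes of the replication clusters rose in part, 12 of 36 in both fits with 2 falling, beside 18.5% and 33.7% of all genes. Their median log2 change was 0.36. Hist1h4i had 267, 215 and 348 TPM in low-NaHCO3 medium, against 30.8, 52.9 and 59.3 TPM in controls 1 to 3. Hist1h4i changed by 2.54 ± 0.37 on the log2 scale (SE, limma adjusted p = 1.93e-04), or by 2.26 without control 1. The linker histone Hist1h1c had 64.9, 45.5 and 69.1 TPM in low-NaHCO3 medium, against 30.9, 18.4 and 16.9 TPM in controls 1 to 3. Hist1h1c changed by 1.43 ± 0.21 on the log2 scale (SE, limma adjusted p = 2.24e-04), or by 1.69 without control 1. Hist1h2bc had 90.3, 70.95 and 105 TPM in low-NaHCO3 medium, against 34.9, 8.32 and 9.81 TPM in controls 1 to 3, so that control 1 lay between the groups (log2 change 2.53, or 3.14 without control 1). Near-identical copies and mRNAs without a poly(A) tail make these counts uncertain, and whether RNA selection bears on them was not tested. Semaphorins, guidance cues of axons and cells, fell in 9 of 18 tested genes and rose in none (median -0.91, or -0.59 without control 1), as in Sema3c with 13.1, 12.7 and 11.997 TPM in low-NaHCO3 medium, against 43.6, 34.8 and 32.2 TPM in controls 1 to 3. Sema3c changed by -1.47 ± 0.12 on the log2 scale (SE, limma adjusted p = 5.22e-06), or by -1.34 without control 1. Beta tubulins fell in 5 of 7 (median -0.82, or -0.49 without control 1), and mitochondrial ribosomal proteins fell in 32 and rose in 5 of 76 (median -0.26, or -0.33 without control 1). Mrpl12 is an example of the latter (log2 change -0.72, or -0.86 without control 1). Beside these 3 families, 33.7% of all genes fell and 18.5% rose, with a median of -0.20 (-0.17 without control 1). Hox genes fell in 9 of 27 in both fits, at the share of all genes (33.7%), and 17 were lower without control 1, beside 40.9% of all genes. Hoxb9 had 130.1, 122 and 127 TPM in low-NaHCO3 medium, against 197, 367 and 391 TPM in controls 1 to 3. Hoxb9 changed by -1.26 ± 0.22 on the log2 scale (SE, limma adjusted p = 6.43e-04), or by -1.58 without control 1. The smooth muscle actin gene Acta2 had 1133, 1152 and 1057 TPM in low-NaHCO3 medium, against 342, 669 and 643 TPM in controls 1 to 3 (log2 change 1.08, or 0.76 without control 1).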
